A study of Mus musculus with 16 samples.

Results

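Pancreas transcriptomes of mice that had lost Men1 were set against those of mice that had lost Daxx, both after induction of chronic pancreatitis. The comparison takes in 8 of the 16 libraries of the series, chosen by genotype: the 4 libraries labelled MC and the 4 labelled DC. MC mice carried Men1fl/fl with Pdx1-CreTg, and DC mice carried Daxxfl/fl with the same Pdx1-CreTg. The other 8 libraries were 4 from wild-type mice (WT), for which no Cre is named, and 4 from DMC mice, which carried Daxxfl/fl, Men1fl/fl and Pdx1-CreTg together. All 4 groups received caerulein, an analogue of cholecystokinin that overstimulates acinar cells, at 50 ug/kg. Mice of 6 to 10 weeks were injected intraperitoneally 4 times at hourly intervals on each treatment day, with 3 such days a week over 3 weeks, and the pancreas was collected 5 days later. There were no MC or DC mice without caerulein, and no mice with Cre alone.

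Men1 encodes menin, a nuclear scaffold protein that joins MLL histone methyltransferase complexes and represses or activates genes according to its partners. Daxx encodes a chaperone that, with Atrx, places histone H3.3 at repeats and silent chromatin. Inactivating mutations of either gene are known from human pancreatic neuroendocrine tumours. Pdx1-Cre acts in the epithelium that forms acini, ducts and islets, so whole pancreas also holds stromal, vascular, fat and immune cells in which neither gene was deleted.

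The libraries held 13481063 to 23728309 reads each. Acinar transcripts were abundant in both groups: Ctrb1, a chymotrypsinogen gene, had 986300 to 1903000 normalized counts in MC and 882500 to 1668000 in DC. A normalized count is a gene's read count divided by a scaling factor of its library. The Y-linked genes were high in MC replicates 1 and 2 and in DC replicate 1 and near 0 in the other 5 libraries, so the sexes were not balanced. In bulk tissue, fewer cells of a type and less RNA per cell cannot be told apart.

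Men1 RNA separated the groups and Daxx RNA did not. Men1 (ENSMUSG00000024947.16, chr19:6334979-6340891, GRCm38) had 127.4, 115.9, 136.4 and 147.3 normalized counts in the MC libraries and 396.6, 481.2, 508.2 and 541.5 in the DC libraries. Every MC library lay below every DC library. The MC mean of 131.8 ± 13.33 (SD, n = 4) was 27.3% of the DC mean of 481.9 ± 61.95, a log2 difference of -1.86 ± 0.13 (SE, limma adjusted p = 3.52e-06). An exact two-sided permutation test gave p = 0.0286, the smallest that 70 assignments of 4 against 4 allow. Daxx (ENSMUSG00000002307.15, chr17:33909414-33915590) had 223.0, 249.2, 230.4 and 281.5 in MC and 224.0, 211.6, 245.0 and 212.4 in DC. These ranges overlap, and the difference did not pass (exact permutation p = 0.2, limma adjusted p = 0.78). With 1 value per gene and none per exon, Daxx RNA does not check the DC label.

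Of 14220 genes tested, 195 (1.37%) differed between MC and DC at an adjusted p under 0.05 by limma. They comprised 84 higher in MC (0.591%) and 111 lower (0.781%), and 1952 genes had an unadjusted p under 0.05. Counts of called list members below are to be read beside these shares. Differences are on the scale of log2(normalized count + 1), so those of low genes are understated. In 191 of the 195 the MC and DC libraries did not overlap, against 8.94% of all genes tested (4.65% higher and 4.29% lower in MC). The rises were larger than the falls: 40 of 84 rises and 19 of 111 falls were at least 4-fold, and the median log2 difference was 1.89 among the rises and -1.29 among the falls. Over all genes tested the median was -0.000149 and 50% were positive. Leaving out 1 of DC replicates 2, 3 and 4 or of MC replicates 1, 2 and 3 left 49 to 118 calls. Of the 44 called genes named by rule, 18 passed with each of the 16 libraries left out in turn: Men1, Cym, Pga5, Hal, Tmprss13, F2, Alb, Cmpk2, Obp2b, Tdh, Bdh2, Nat8, Gprc5a, Susd3, Ccbe1, Cd209a, Per1 and Ajuba. The other 26 kept their direction but missed the threshold without at least 1 library, with an adjusted p of at most 0.14.

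**Figure D1:**
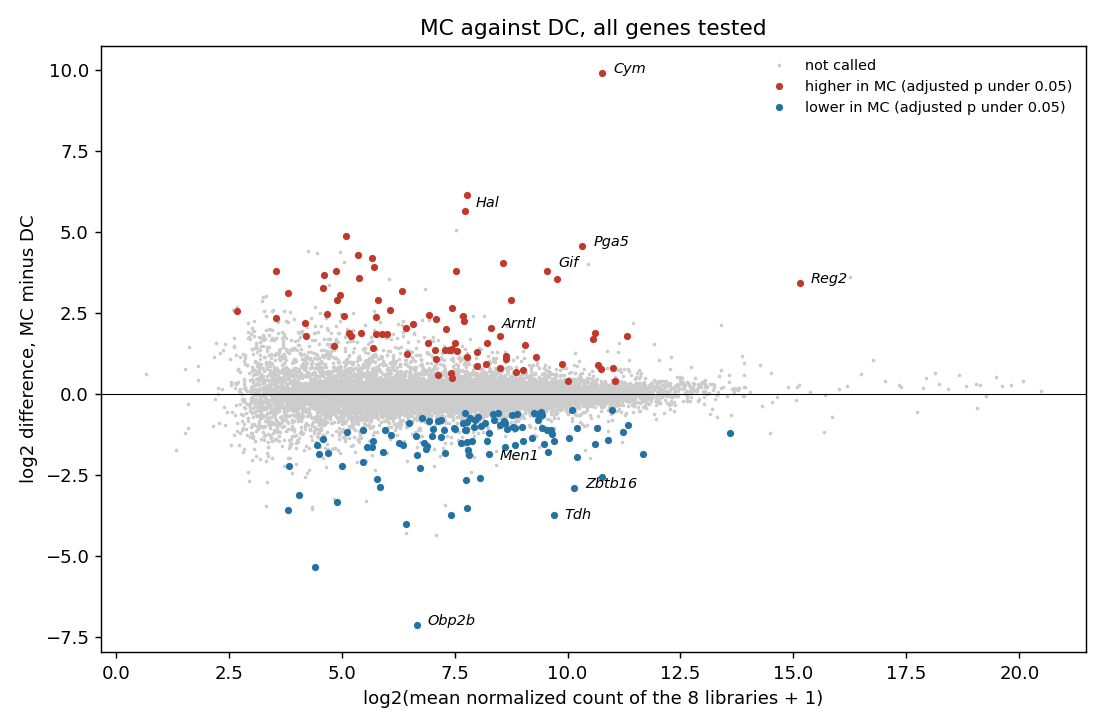
Log2 difference between MC and DC (vertical axis, MC minus DC) against the log2 mean normalized count plus 1 of the 8 libraries (horizontal axis) for the 14220 genes tested. Red points are the 84 genes higher in MC and blue points the 111 lower; Cym stands at the top at 9.89 and Obp2b at the bottom at -7.11.

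Genes of the stomach's glands were among the largest rises in MC. Chief cells at the base of these glands secrete pepsinogens, mucous neck cells secrete a gland mucin, and parietal cells secrete acid. Cym, which encodes the milk-clotting protease chymosin, had 2089, 768.3, 1219 and 9856 normalized counts in MC. In DC it had 1.836, 1.659, 0 and 2.201, from 7 reads in all. No DC library came near an MC library. Summed reads of a group, divided by the summed scaling factors of its libraries, were 2940 times higher in MC (95% counting interval 1430 to 7320). The log2 difference was 9.89 ± 0.88 (SE, limma adjusted p = 2.99e-05).

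Pga5, a pepsinogen gene, had 2091, 774.7, 1413 and 5654 normalized counts in MC against 72.23, 104.5, 125.3 and 40.72 in DC. The lowest MC library was above the highest DC library, and the log2 difference was 4.57 ± 0.69 (SE, adjusted p = 0.00503). Gif, the gene of gastric intrinsic factor, which carries vitamin B12, had 811.2, 304.8, 719.6 and 3848 in MC against 106.5, 102.9, 79.76 and 18.71 in DC. Here too MC replicate 4 was the highest and replicate 2 the lowest, with a log2 difference of 3.81 (adjusted p = 0.0386). Pgc, the progastricsin gene, differed by 3.56 (adjusted p = 0.0399), with 890.6 to 2970 in MC and 29.72 to 227.9 in DC.

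Of the 7 chief cell genes tested, 4 were higher in MC, against 0.591% of all genes tested. None was lower, and the median log2 difference was 3.56. Bhlha15, Dpp10 and Rnase1 did not pass, and acinar cells also make Bhlha15 and Rnase1. Lipf and Chia1, further chief cell genes, were not among the genes tested. The mean log2 level of the list was 10.3 to 11.8 in the MC libraries and 7.02 to 7.97 in the DC libraries. Its summed counts, most of them Rnase1, were 107000 to 210400 in MC and 64160 to 161200 in DC and overlap.

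Of the 7 mucous neck and gland mucin genes, 2 were higher in MC, against 0.591% of all genes tested, and the median was 0.89. Muc6, the gland mucin itself, had 930.1, 357.2, 263.8 and 1246 in MC against 53.86, 51.44, 118.5 and 3.302 in DC (log2 difference 4.05, adjusted p = 0.0414). A4gnt, whose enzyme caps the sugar chains of that mucin, had 17.46 to 214 in MC and 0 to 4.558 in DC, where 9 reads were counted in all. Divided by the summed scaling factors of each group, its summed reads were 51.1 times higher in MC (95% counting interval 26.6 to 113). Both genes kept their groups apart. Tff2, a trefoil factor gene that was far more abundant, had a log2 difference of 0.89 that did not pass (adjusted p = 0.163).

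Parietal cell genes gave 1 of 6 higher, against 0.591% of all genes tested, with a median of 1.34. That gene, Slc9a4, a sodium and proton exchanger, had 96.81, 80.96, 78.83 and 317 in MC against 31.83, 19.91, 9.115 and 3.302 in DC (log2 difference 3.18, adjusted p = 0.0414). Atp4a, the catalytic subunit of the acid pump, did not pass (1.94, adjusted p = 0.169), and its partner Atp4b was not among the genes tested. Of the surface pit cell list, Gkn3 alone was tested (4.02, adjusted p = 0.0597), and it is also counted in the mucous neck list. Muc5ac, Gkn1, Gkn2 and Tff1 were not among the genes tested. The summed counts of the parietal list were 773.2 to 1139 in MC, 676.4 to 789 in DC, 522.2 to 981.7 in WT and 774.6 to 1006 in DMC. Whether stomach tissue was present in some libraries was not tested.

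Ghrl, the gene of ghrelin, a hormone of gastric endocrine cells and of a rare islet cell, was the 1 called member of 8 hormone genes. It had 160.5, 71.44, 268.8 and 891.5 in MC against 26.93, 19.91, 18.23 and 5.503 in DC (log2 difference 3.81, adjusted p = 0.031). The median of the hormone list was 0.79. Among 34 other islet endocrine genes none passed the test, 33 had a positive log2 difference and the median was 0.84. Over the 34 alternatives this median ran from -0.04 to 2.13, and that of the hormone list from -0.89 to 2.24. The most changed of them in value, Scg2, a secretogranin gene of hormone granules, had 1691 to 6873 in MC and 421.5 to 3025 in DC (2.20, adjusted p = 0.133). Its DC replicate 1 lay within the MC range.

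**Figure D2:**
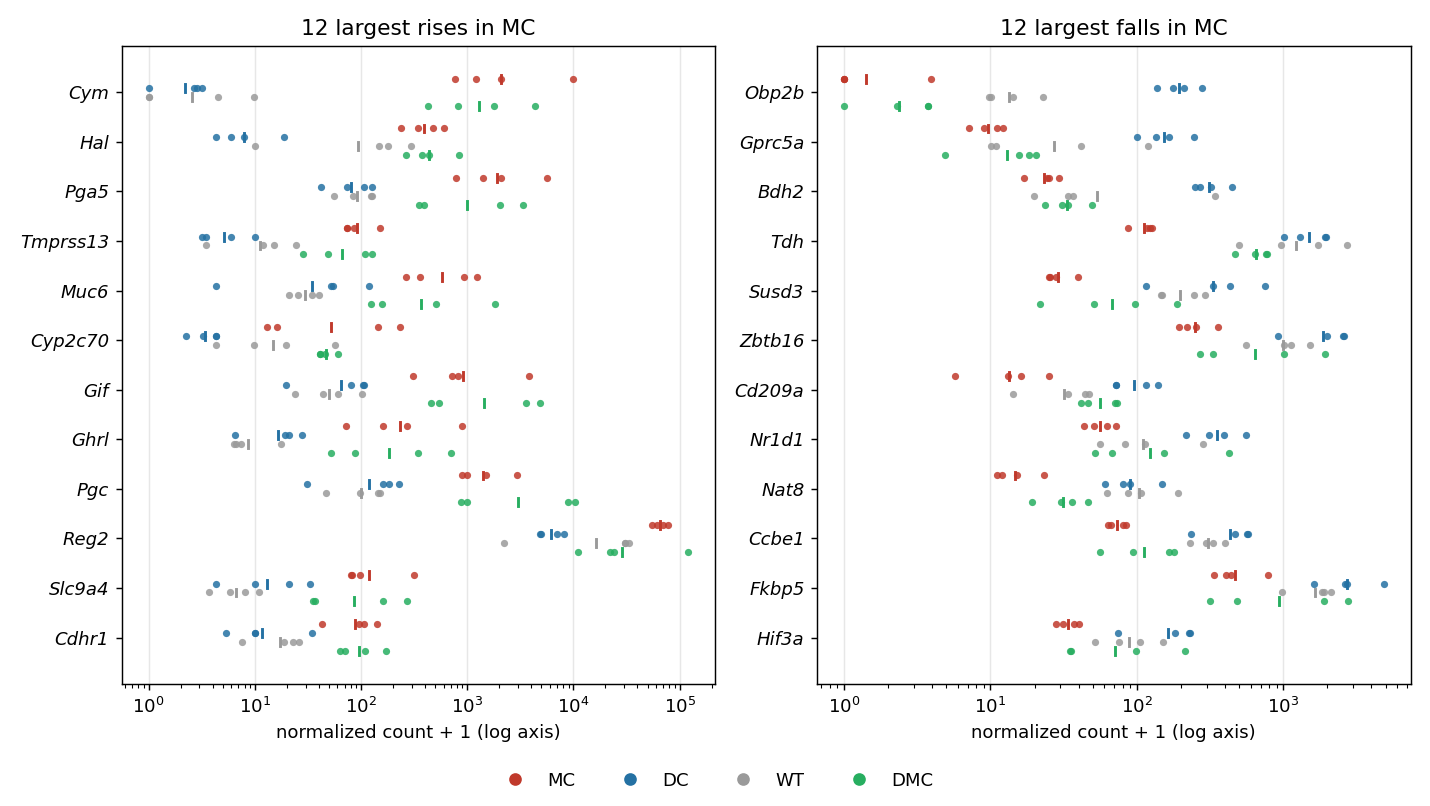
Normalized count plus 1 on a log axis (horizontal) in each library for the 12 genes with the largest rise (left) and the 12 with the largest fall (right) in MC against DC; points are libraries coloured by group, and each short vertical mark is the group mean of the log values. In all 24 genes the MC and DC points do not overlap, which was required of the genes shown; the WT points of Cym lie near the DC points, and the DMC points near the MC points.

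Promoter sequences of Cym and Pgc are shown because these genes of gastric proteases rose together, and that of Obp2b because it had the largest fall. They run from 250 bases before to 50 after the RefSeq start (GRCm38.p6), on the gene's strand: chr3:107221683-107221982 for Cym (minus strand), chr17:47726592-47726891 for Pgc (plus strand) and chr2:25736757-25737056 for Obp2b (plus strand). Capitals mark TATAAA, read on the gene's strand, which begins 29, 31 and 28 bases before the start. TATAAA was found in 5.87% of the 11086 tested genes matched to a promoter. Of these it was in 13 of 60 genes higher in MC (21.7%) and in 6 of 89 lower ones (6.74%). A gene was counted if any of its listed promoters held the letters. A match is a description of letters and not a measured binding site.
Cym: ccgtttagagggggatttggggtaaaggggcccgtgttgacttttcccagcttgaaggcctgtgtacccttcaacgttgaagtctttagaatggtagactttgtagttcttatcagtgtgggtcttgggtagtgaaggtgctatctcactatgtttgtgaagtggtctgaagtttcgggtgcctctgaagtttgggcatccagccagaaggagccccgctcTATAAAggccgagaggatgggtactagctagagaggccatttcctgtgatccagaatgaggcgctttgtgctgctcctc
Pgc: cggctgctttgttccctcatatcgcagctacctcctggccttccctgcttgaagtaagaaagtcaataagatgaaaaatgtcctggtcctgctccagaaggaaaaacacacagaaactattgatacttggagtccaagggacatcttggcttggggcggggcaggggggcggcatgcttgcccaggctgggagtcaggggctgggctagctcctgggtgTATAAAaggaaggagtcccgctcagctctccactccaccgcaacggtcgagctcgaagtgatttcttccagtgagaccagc
Obp2b: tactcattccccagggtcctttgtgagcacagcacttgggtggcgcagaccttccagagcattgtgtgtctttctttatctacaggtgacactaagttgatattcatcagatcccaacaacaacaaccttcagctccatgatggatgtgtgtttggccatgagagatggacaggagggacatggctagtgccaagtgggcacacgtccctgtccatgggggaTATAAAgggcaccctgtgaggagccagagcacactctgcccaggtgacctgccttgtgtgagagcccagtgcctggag

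Hal and Reg2, outside the stomach lists, also rose. Hal, the histidine ammonia-lyase gene, had 600.4, 346.1, 235.5 and 477.3 in MC against 17.75, 4.978, 6.837 and 3.302 in DC. The groups were far apart, with a mean of 414.8 ± 158.4 (SD, n = 4) in MC and 8.22 ± 6.52 in DC and a log2 difference of 5.64 ± 0.79 (SE, adjusted p = 0.00298). Reg2, a regenerating-family gene that acinar cells induce on injury, had 69800, 61270, 77350 and 55460 in MC against 4885, 8185, 4934 and 7073 in DC. The groups did not overlap, and the log2 difference was 3.42 (adjusted p = 0.0374). All 6 Reg genes tested had a positive difference, with a median of 1.46 (0.34 to 1.66 over the alternatives), but Reg2 alone passed. Reg genes are close relatives whose reads may be shared, so their separate values are uncertain.

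Plasma protein genes better known from liver gave 2 of 7 higher, against 0.591% of all genes tested, with a median of 1.37. Alb, the albumin gene, had 301.4, 198.4, 208.2 and 190.1 in MC against 71.61, 98.73, 94.57 and 77.04 in DC (log2 difference 1.37 ± 0.18, SE, adjusted p = 0.00184). F2, which encodes prothrombin, had 158.1, 130.2, 136.4 and 121.1 against 26.93, 39.82, 29.63 and 35.22 (2.03 ± 0.27, adjusted p = 0.00184). Both genes were higher in every MC library. The other members, Ttr, Ahsg, Cps1, Serpina1b and Tat, did not pass, and Tat, a hepatocyte enzyme gene, averaged 7.95 in MC. The summed counts of the list were 1334 to 2005 in MC and 843 to 1683 in DC; the part of liver tissue was not tested. Cyp2c70, which encodes a bile acid hydroxylase of mouse liver, had 234.1, 142.9, 12.13 and 15.23 in MC against 1.224 to 3.319 in DC (3.92, adjusted p = 0.0359). Its MC libraries fell into a high pair, replicates 1 and 2, and a low pair, replicates 3 and 4. The Y-linked genes were high in the first pair and near 0 in the second. DC replicate 1, where they were also high, had 1.224, and the part of sex was not tested.

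No acinar enzyme gene passed the test. Of 27 genes, 21 had a positive difference and the median was 0.26. Cel, the carboxyl ester lipase gene, had 874000 to 1461000 in MC and 662400 to 1232000 in DC (log2 difference 0.40, adjusted p = 0.828). Ctrc, another chymotrypsinogen gene, had the largest difference of the list (3.61, adjusted p = 0.188), with 155600, 139100, 137500 and 83790 in MC against 1180, 57810, 45820 and 3619 in DC. Its MC libraries all lay above the DC libraries, which were spread widely, and WT replicate 4 had 189200 against 2869 to 5136 in the other WT libraries. Tmprss13, a membrane serine protease gene, had 73.52, 85.72, 150.6 and 73.27 in MC against 2.448, 4.978, 9.115 and 2.201 in DC (4.18, adjusted p = 0.00304). Cdhr1, a cadherin gene of photoreceptors, rose by 2.91 (adjusted p = 0.0163), with 41.66 to 140.7 in MC and 4.402 to 33.66 in DC.

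Obp2b, an odorant-binding lipocalin gene, had the largest fall. It had 0, 0, 0 and 2.902 normalized counts in MC, from 4 reads, against 279.7, 207.4, 175.5 and 135.4 in DC. A count of 0 allows at most 3.03 to 4.76 normalized counts (3 reads) in the 3 MC libraries without a read. Divided by the summed scaling factors of each group, the summed reads were 203 times higher in DC (95% counting interval 79.0 to 746). The log2 difference was -7.11 ± 0.54 (SE, limma adjusted p = 5.25e-06). WT libraries had 8.84 to 22.03 and DMC libraries 0 to 2.741, so both lay below every DC library. Bglap3, an osteocalcin-related gene that is high in DMC (1770 to 4394) and low in WT (37.33 to 99.0), did not differ between MC and DC by the test. It had 214.3 to 618.8 in MC and 326.2 to 730.9 in DC (log2 difference -0.24, adjusted p = 0.856).

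Tdh, Bdh2 and Nat8 were lower in MC, while the other 14 tested genes of the threonine, ketone and serine metabolism list did not pass. Tdh, the threonine dehydrogenase gene, had 125.0, 122.2, 85.91 and 116.1 in MC against 1295, 1926, 1019 and 1955 in DC. The groups were separated by a wide gap (13.8-fold on the means, log2 difference -3.74 ± 0.39, SE, adjusted p = 0.000177). Bdh2, a hydroxybutyrate dehydrogenase gene, had 23.28, 15.87, 28.3 and 23.94 against 246.7, 443, 322.5 and 267.4 (-3.74, adjusted p = 0.00728). Nat8, an N-acetyltransferase gene, had 10.16 to 22.24 against 59.37 to 148.6 (-2.61, adjusted p = 0.00361). These were 3 of 17 tested members, against 0.781% of all genes tested that were lower, with 11 positive and a list median of 0.21. Nat8f2 and Nat8f5, paralogs beside Nat8 on chromosome 6, fell too (-3.31, adjusted p = 0.0179, and -3.57, adjusted p = 0.0193); reads may be shared among the 3.

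Further large falls were those of Gprc5a, Susd3, Ccbe1 and Cd209a. Gprc5a, an orphan receptor gene induced by retinoic acid, had 6.127, 11.11, 10.11 and 7.979 in MC against 98.55, 165.1, 133.3 and 245.4 in DC (-3.99, adjusted p = 0.00793). Susd3 had 23.94 to 38.41 against 115.1 to 744 (-3.52, adjusted p = 0.00728). Ccbe1, which encodes a secreted factor of lymphatic vessel growth, had 62.5 to 82.88 against 233.8 to 572.3 (-2.57, adjusted p = 0.00184). In each of the 3 genes every DC library was higher than every MC library. Cd209a, a lectin gene of dendritic cells, had 12.25, 4.762, 24.26 and 15.23 against 71.61, 138.5, 115.1 and 71.54 (-2.85, adjusted p = 0.00591). It was the 1 called gene of 12 dendritic cell genes, whose median was 0.03.

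Among circadian clock genes Arntl was higher in MC and 6 others were lower. In the core loop, Arntl (Bmal1) drives Per, Cry and Nr1d genes through E-boxes, and the Nr1d products in turn repress Arntl, so the arms peak at different hours. Arntl had 496.3, 617.5, 487.2 and 409.9 in MC against 184.9, 116.1, 111.7 and 89.15 in DC (log2 difference 2.03, adjusted p = 0.0163). Nr1d1, its repressor, had 71.07, 61.91, 42.45 and 50.05 against 217.3, 311.9, 557.2 and 395.1 (-2.64, adjusted p = 0.0323). The driver was higher in every MC library and the repressor lower in every one. Nr1d2 (-1.93), Dbp (-1.83), Per1 (-1.46), Tef (-1.10) and Cry2 (-0.97) were lower too. Thus 7 of 19 clock genes passed, against 1.37% of all genes tested, with a list median of -0.97. Clock, the partner of Arntl, had a difference of 0.21 (adjusted p = 0.587).

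Genes induced by glucocorticoids, whose hormone also follows the time of day and stress, were lower in MC for 6 of 14 members. The median was -0.98, and 0.781% of all genes tested were lower. Per1 is counted in both lists. Zbtb16, a transcription factor gene strongly induced by the hormone, had 251.2, 192.1, 357.8 and 217.6 in MC against 915.7, 1979, 2588 and 2576 in DC. The groups were 7.91-fold apart on the means, with a log2 difference of -2.91 ± 0.52 (SE, adjusted p = 0.0144). Fkbp5, which encodes a co-chaperone of the hormone's receptor, had 405.6, 335, 788.3 and 441 against 1629, 2732, 2639 and 4843 (-2.56, adjusted p = 0.0354). Sult1a1 (-1.19), Tsc22d3 (-1.06) and Ddit4 (-1.05) also fell, and Sgk1 had a difference of -0.03. Hif3a, a hypoxia-inducible factor gene outside the list, fell by 2.27 on the log2 scale (adjusted p = 0.0411).

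The promoters of Per1 and Tef are shown because these clock genes fell together and each holds an E-box. They are chr11:69098699-69098998 and chr15:81802423-81802722, both on the plus strand of GRCm38.p6 from RefSeq, each from 1 of 2 promoters listed for the gene. Capitals mark CACGTG, which begins 166 bases before the start of Per1 and 127 bases before that of Tef. CACGTG, the same on both strands, was in 5 of 16 matched clock genes (31.2%) and in 11.2% of all 11086 matched genes. It was in 10 of 89 matched genes lower in MC (11.2%) and in 4 of 60 higher ones (6.67%).
Per1: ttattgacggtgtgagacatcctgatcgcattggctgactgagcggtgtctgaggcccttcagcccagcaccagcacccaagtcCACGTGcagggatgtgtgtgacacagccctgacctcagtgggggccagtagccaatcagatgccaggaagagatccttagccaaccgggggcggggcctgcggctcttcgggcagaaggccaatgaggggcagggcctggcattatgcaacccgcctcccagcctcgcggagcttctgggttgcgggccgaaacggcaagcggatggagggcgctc
Tef: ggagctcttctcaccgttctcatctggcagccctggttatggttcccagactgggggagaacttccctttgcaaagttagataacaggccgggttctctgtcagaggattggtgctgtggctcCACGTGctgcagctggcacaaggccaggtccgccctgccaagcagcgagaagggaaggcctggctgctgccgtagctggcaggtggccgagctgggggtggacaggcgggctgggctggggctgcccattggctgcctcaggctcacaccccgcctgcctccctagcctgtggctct

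A clock gene level was computed for each library as the mean log2 value of Nr1d1, Nr1d2, Dbp, Tef and Per3 minus that of Arntl, Npas2 and Nfil3. It was -0.79 to -0.18 in the MC libraries and 2.13 to 3.59 in the DC libraries, with no overlap. It also varied within the groups that the contrast did not use: 0.75, 0.31, 2.28 and -0.48 in WT replicates 1 to 4 and 1.34, 3.46, -0.68 and -0.18 in DMC replicates 1 to 4. The DMC pairs differed likewise in Zbtb16, with 1010 and 1918 in replicates 1 and 2 and 327.9 and 268.7 in replicates 3 and 4. The sources used here do not give the hour of collection.

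The labels also give each sample a running number, and the MC and DC libraries lie in different ranges of it. Numbers 6995 to 7000 hold all MC libraries and WT replicate 4, and numbers 6978 to 6986 hold all DC libraries and WT replicates 1 and 3. The clock gene level was -0.79 to -0.18 in the first range and 0.75 to 3.59 in the second. The other 2 ranges gave 0.31 to 3.46 (6959 to 6963: DMC replicates 1 and 2 and WT replicate 2) and -0.68 to -0.18 (7071 to 7078: DMC replicates 3 and 4). The level thus varied widely within 6959 to 6963 and 6978 to 6986, and little within 6995 to 7000 and 7071 to 7078. What the numbers stand for is not stated. No range holds both an MC and a DC library, so no comparison within a range was possible, and genotype and number range cannot be told apart from the 8 libraries alone. With the clock gene level as a covariate, 4 genes passed: Cym (10.53, adjusted p = 0.0101), Men1 (-1.58, adjusted p = 0.00451), Obp2b (-7.66, adjusted p = 0.00381) and Rftn2. That level was computed partly from genes called in this contrast and did not overlap between MC and DC. The covariate is thus close to the contrast itself, and a call lost with it does not tell the clock from the genotype. With the 4 number ranges as a term, the difference is MC minus WT replicate 4, less DC minus the mean of WT replicates 1 and 3. It therefore hangs on WT replicate 4 alone in the MC range, and the DMC libraries enter only the estimate of the spread. In that fit limma called 0 genes, with 521 at an unadjusted p under 0.05, and 191 of the 195 kept their direction. Many differences became much smaller. With the clock covariate Reg2 had 0.76, Susd3 -1.34, Fkbp5 -0.33 and Hif3a -0.05, and with the number ranges Gprc5a had -1.30.

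**Figure D3:**
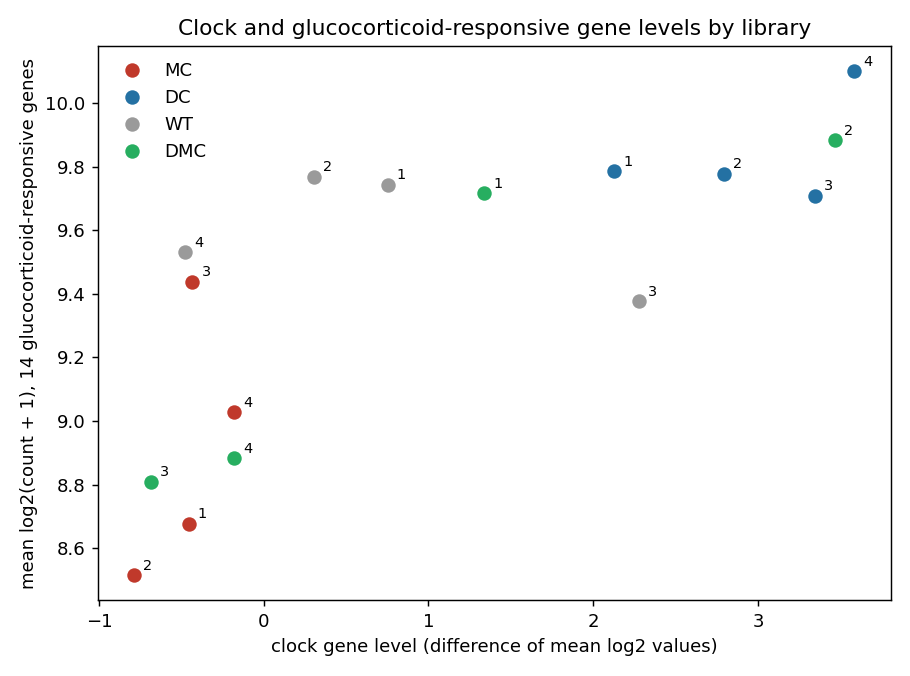
Mean log2(normalized count + 1) of the 14 glucocorticoid-responsive genes (vertical) against the clock gene level (horizontal, difference of mean log2 values) in the 16 libraries, coloured by group and numbered by replicate. The MC points lie at or below -0.18 and the DC points at or above 2.13 on the clock axis, and DMC replicates 1 and 2 lie apart from 3 and 4.

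The WT libraries that share a number range with MC or DC lay apart from that group in some genes and within its values in others. Men1 had 336 in WT replicate 4, against 115.9 to 147.3 in the MC libraries of the same range, and 330.6 and 459.3 in WT replicates 1 and 3, against 396.6 to 541.5 in the DC libraries of theirs. Cym had 8.784 in WT replicate 4, below every MC library, and Tdh had 495.2 there, above every MC library. Obp2b had 8.84 and 22.03 in WT replicates 1 and 3, below every DC library. By contrast WT replicate 4 lay within the MC values for Nr1d1 (54.9) and Hal (293.2). WT replicate 3 lay within the DC values for Bdh2 (338.6), Nr1d1 (283.1) and Hal (8.975). WT replicate 1, of the same number range as DC, did not: it had 35.36 for Bdh2, 113.1 for Nr1d1 and 178.6 for Hal. These genes thus did not follow the number range in every WT library. Over the 195 genes, WT replicate 4 lay within or beyond the MC range in 58, within or beyond the DC range in 67 and between them in 70. The counts within or beyond the MC and the DC range were 38 and 91 for WT replicate 1, 18 and 129 for WT replicate 3, and 27 and 93 for WT replicate 2, which shares a range with neither group.

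The libraries left out of the contrast gave a further view of each gene. Each WT and DMC library was placed on the log2 scale between the DC mean (0) and the MC mean (1) of each of the 195 genes. The WT libraries had median positions of 0.32, 0.31, 0.12 and 0.53, and the DMC libraries 0.51, 0.54, 0.82 and 0.75. WT replicate 4, the highest, had the lowest WT clock gene level (-0.48), and WT replicate 3, the lowest, had the highest (2.28). DMC replicates 3 and 4 (clock gene levels -0.68 and -0.18) lay nearer MC than replicates 1 and 2 (1.34 and 3.46). Some genes of that level are among the 195. By group means, WT was nearer DC and DMC nearer MC in 95 genes, which is 48.7% of the 195 and 26.8% of all genes tested. Both were nearer MC in 43 genes (22.1% against 31.6% of all tested), among them Hal and Arntl, and both nearer DC in 42 (21.5% against 24.4%). In 15 genes (7.69% against 17.2%) WT was nearer MC and DMC nearer DC, and Ajuba was among them.

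In a separate fit of DMC against WT without the MC and DC libraries, 72 of the 84 genes higher in MC had a positive difference, against 47.3% of all genes. Of the 111 lower genes, 80 had a negative difference, against 52.7% of all genes. The median was 0.83 for the first set and -0.30 for the second. That fit called 16 genes (0.113%; 0.0844% higher in DMC), and 6 were also called in MC against DC: Cym, Slc35d1, Alb, Azgp1, Olfm4 and Men1. They are 3.08% of the 195 and 37.5% of the 16, and all 6 had the same direction. The clock gene level and the number range varied within both DMC and WT, and their part in these counts was not tested.

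**Figure D4:**
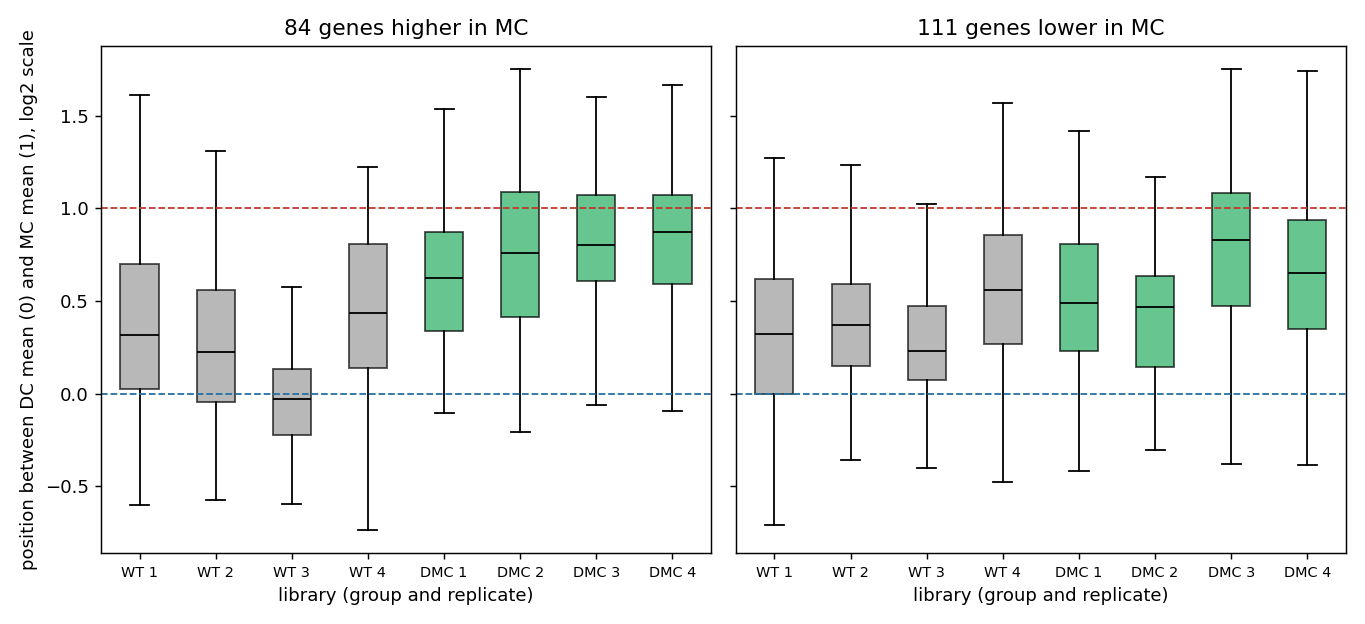
Position of each WT and DMC library between the DC mean (0, blue dashed line) and the MC mean (1, red dashed line) on the log2 scale, for the 84 genes higher in MC (left) and the 111 lower (right); boxes give the median and quartiles over genes and whiskers reach the farthest gene within 1.5 box lengths. Among the higher genes the medians of the WT libraries run from -0.03 to 0.43 and those of the DMC libraries from 0.62 to 0.87.

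Partners of the deleted genes' products were examined next. In the menin and MLL complex list 2 of 15 genes were lower, Men1 itself and Paxip1, and the median was -0.16; over all genes tested 0.781% were lower. Paxip1, a subunit of MLL3 and MLL4 complexes, had 435, 466.7, 541.7 and 439.6 in MC against 674.5, 1223, 1111 and 1582 in DC (-1.23, adjusted p = 0.0207). Every DC library was above every MC library. None of 17 genes of the Daxx, Atrx and H3.3 chaperone list passed, with a median of -0.03, and Atrx itself had -0.20 (adjusted p = 0.408). Of 13 listed menin target genes none passed, with a median of -0.18.

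In the Hippo signalling list Ajuba was lower and Limd1 higher; both encode LIM proteins that hold back the LATS kinases. Ajuba (chr14:54567472-54577558) had 94.36, 88.9, 98.04 and 131.3 in MC against 331.1, 282.9, 262.1 and 298.3 in DC (-1.51 ± 0.20, SE, adjusted p = 0.00184). WT libraries had 82.35 to 139.7 and DMC libraries 158.1 to 284.9, so DC stood above both WT and MC in every library. Limd1 had 1079 to 1294 in MC against 807.2 to 919.5 in DC (0.42, adjusted p = 0.0312). The median of the 22 Hippo genes was -0.09.

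Notch1 was the 1 called of 20 Notch genes, with 1429, 1733, 1286 and 1281 against 1840, 3638, 3694 and 4289 (-1.18, adjusted p = 0.0163). DC replicate 1 was the lowest of its group and still above all MC libraries. Herpud1, a gene of endoplasmic reticulum protein disposal, was the 1 called of 28 genes of the unfolded protein response, with 6536 to 8120 against 11430 to 22790 (-1.18, adjusted p = 0.0313). Cmpk2, a nucleotide kinase gene induced by interferon, had 333.3, 428.6, 287 and 412.8 against 145.7, 165.1, 115.1 and 157.4 (1.31 ± 0.18, SE, adjusted p = 0.00192). It was the 1 called of 41 interferon-stimulated genes, of which 35 had a positive difference, with a median of 0.65.

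Among 22 imprinted genes, Sgce and Ppp1r9a, neighbours on chromosome 6, were lower. Of all genes tested 0.781% were lower. Sgce had 122.2 to 177.7 in MC against 222.2 to 313.4 in DC (-0.89, adjusted p = 0.0201), and Ppp1r9a had 457.2 to 652.1 against 774.3 to 887.6 (-0.62, adjusted p = 0.0315). Casd1, next to Sgce, fell as well (-0.70, adjusted p = 0.0469). In each of these 3 genes the DC libraries lay above the MC libraries. The median of the imprinted list was 0.09.

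**Figure D5:**
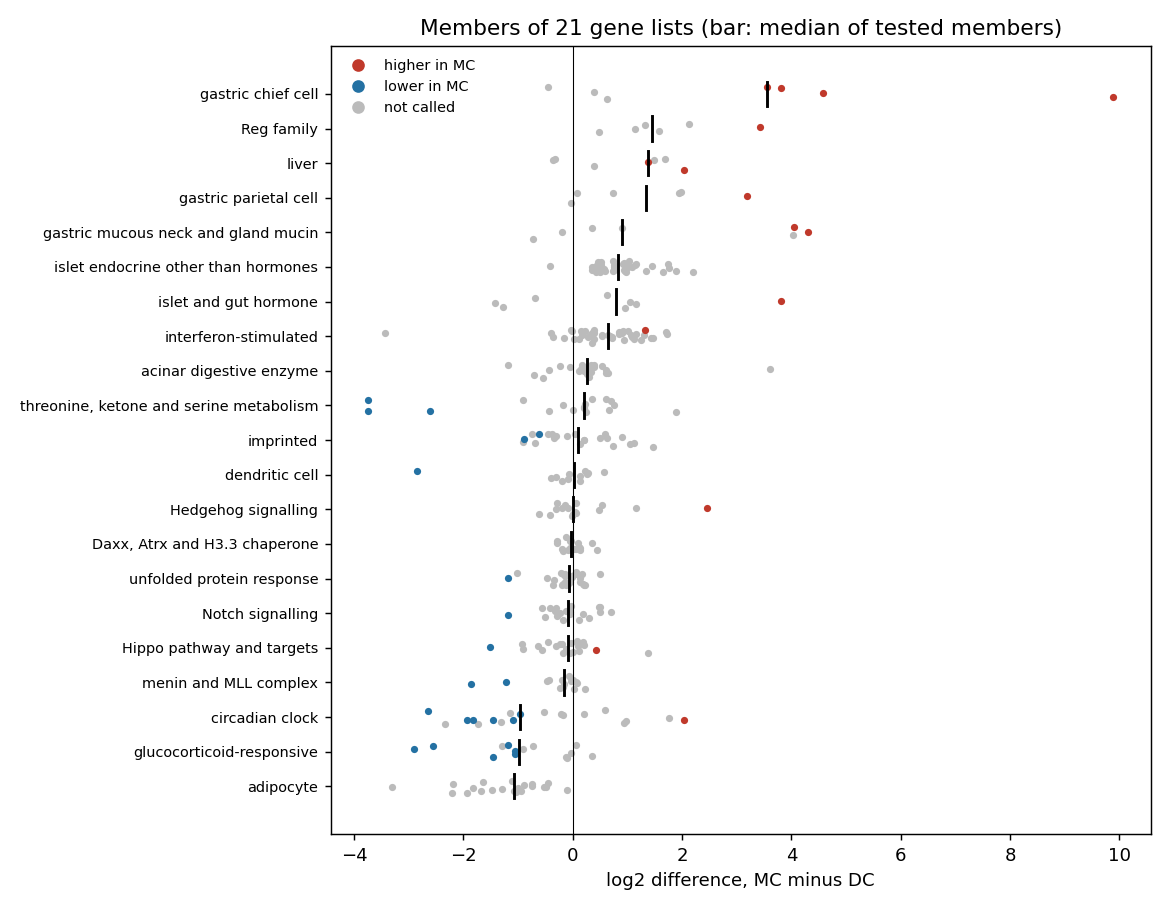
Log2 difference between MC and DC (horizontal, MC minus DC) of each tested member of 21 gene lists (rows); red points were higher in MC, blue points lower and grey points did not pass, and the black bar is the list's median. Of the 46 lists examined, 21 are drawn; among these the chief cell list has the highest median, 3.56, and the adipocyte list the lowest, -1.07, although no adipocyte gene passed.

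The neighbourhoods of the floxed genes were examined because flanking DNA of the targeting strain travels with a floxed allele. Within 5 Mb of Daxx, 1 of 192 tested genes was called (0.521%): Zfp955b, a zinc finger gene, which had 73.27 to 91.97 in MC against 125.3 to 143.2 in DC (-0.73, adjusted p = 0.0399). Within 5 Mb of Men1, 2 of 207 were called (0.966%), the glutathione transferase gene Gstp3 (2.21, adjusted p = 0.0174) and Pga5. Both shares were below the 1.37% of all genes tested. Elsewhere, Haus4, which lies 12.9 kb from Ajuba on chromosome 14, was lower in MC as Ajuba was; it had 34.92 to 62.5 in MC against 96.85 to 266.3 in DC (-1.68, adjusted p = 0.0122).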

How the data were processed

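Total RNA of whole pancreas was sequenced from 4 animals per genotype, as the labels describe them. The authors deposited gene counts divided by a size factor per library, a normalized signal. Reads were aligned with STAR 2.6.0b to GRCm38 and DESeq2 was used, per the submitters' processing notes; for counting tool, annotation and gene filter the sources used here give nothing. Of 15156 genes, 15152 matched GENCODE release M21. Whole reads were recovered in each library (100% of values within 0.01 of a whole number). Depth was 13481063 to 23728309 reads, and intervals cover counting error only. No library pair of a group was a duplicate (chi-square per degree of freedom 8.627 to 132.6).

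Genes had to reach a normalized count of 10 in 4 or more of the 16 libraries. log2(count + 1) entered limma 3.58.1 (trend, R 4.3.3), fitted on all 16 libraries with a coefficient per genotype, and MC minus DC was tested with Benjamini-Hochberg adjustment at 0.05. Single levels had an exact permutation test. Alternatives included edgeR 4.0.16 and DESeq2 1.42.0 on recovered reads, other scalings and filters, covariates and each library left out; scripts were tested on simulated data. Named are Men1, Daxx, the 12 largest rises and 12 largest falls (mean of at least 50, no overlap, established symbol), up to 4 called members per list (or 2 abundant members where none was called), called genes around the floxed loci, and Obp2b, Bglap3, Ajuba, Cym and Tdh. One gene that the rule names is not reported here. Genes named beside their list, neighbour or separate-fit count were chosen after their values were seen. The members and lists were chosen with earlier results of these data known.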

Additional observations from a re-analysis of the deposited data

Results flagged for a closer look

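In 8 of 108 groups of 4 libraries (54 named genes, MC and DC), 1 library stood apart by its gap to the nearest other library, relative to the group's range (Dixon's test at the 95% level). The gaps were taken on normalized counts and not on their logs. Chance gives about 1 in 20 groups where values are normally distributed, a rate that may not hold for counts. MC replicate 4 was such a library in Cym (9856 against 768.3 to 2089), Gif (3848 against 304.8 to 811.2) and Slc9a4 (317 against 78.83 to 96.81). It also met the criterion in Obp2b (2.902 against 0 in the other 3), where any value above 0 would, and 2.902 is below what a count of 0 allows there. Cym, Gif and Slc9a4 belong to the stomach gland lists. MC replicate 3 stood apart in Tmprss13 (150.6 against 73.27 to 85.72) and MC replicate 1 in Alb (301.4 against 190.1 to 208.2). DC replicate 1, the DC library with high Y-linked genes, stood apart in Cdhr1 (33.66 against 4.402 to 9.126) and Scg2 (3025 against 421.5 to 638.8). Without MC replicate 4, limma gave adjusted p = 0.0969 for Gif (log2 difference 3.12) and 0.112 for Slc9a4 (2.71). Both calls were also lost without other libraries, with up to 0.115 for Gif (without DC replicate 4) and 0.122 for Slc9a4 (without DC replicate 4), while the Cym call held with each library left out in turn.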

How the results depend on the processing

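The count of 195 genes (84 higher, 111 lower) rested on the settings. Library quality weights gave 1033 (509 and 524), DESeq2 500 (243 and 257), edgeR 179, and a fit of the MC and DC libraries alone 268, with 142 higher and 126 lower. The clock gene level as a covariate gave 4 (1 and 3) and the number ranges as a term 0 (0 and 0); the latter was chosen after seeing the data. Leaving out 1 library gave 49 to 253 in all, 19 to 116 higher and 29 to 137 lower. Without DC replicates 2, 3 and 4 in turn, 49, 83 and 50 genes passed; without MC replicates 1, 2 and 3 it was 81, 65 and 118. The 9 libraries with low Y-linked genes alone, also chosen after seeing the data, gave 149, of which 106 higher and 43 lower, so that 71.1% of calls were rises against 43.1%. Of these 149 genes, 47 were among the 195. That fit held MC replicates 3 and 4 and DC replicates 2, 3 and 4. Of the 195, those with a value (159 with a mean of at least 50, all 195 otherwise) kept their direction in every setting but the clock covariate (194) and the number ranges (191), where many differences shrank.

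The labels do not say whether a replicate number pairs libraries. Deviations of same-numbered MC and DC libraries from their group means correlated at -0.325, 0.12, 0.145 and -0.371, and none correlated best with its own number. With 4 libraries per group, such correlations over all genes cannot show whether a number marks a shared litter or day. With the replicate number as a block, 110 genes passed (47 and 63).

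Men1 kept an adjusted p under 0.05 except with the number ranges (-1.65, adjusted p = 0.312), as did Obp2b (-7.02, adjusted p = 0.312) and Cym (7.69, adjusted p = 0.705). The difference in Men1 level was -350.1, -378.5 to -330.2 with 1 library left out, -368.4 in low Y-linked libraries (exact permutation p = 0.1) and -275 in high ones (p = 0.333), where the group sizes allow no smaller p. The DMC against WT count of 16 was 112 in the fit of all 16 libraries and 1 to 25 with 1 library left out (4 without WT replicate 3, 2, 5, 25 and 1 without DMC replicates 1 to 4).

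Genes that were not called changed sign in some fits: Ctrb1 with quality weights (-0.11), the clock covariate (-0.33), low Y-linked libraries (-0.39) and number ranges (-0.036); H3f3b in the last 2 (0.096 and 0.028); Cel (-0.0080) and Atrx (0.027) with the clock covariate; and Bglap3 with number ranges (0.82). Of the named genes that were called Dbp alone did so, at 0.018 with the clock covariate. Dbp is itself among the genes from which that covariate was computed, so the adjustment takes up its own difference. With 1 library left out, Ctrb1 ran from -0.10 to 0.30, H3f3b from -0.15 to 0.020 and Bglap3 from -0.44 to 0.066. Causes of these changes were not tested.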

Other observations

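Fat cell genes lay lower in MC throughout. None of 21 adipocyte genes passed, but all 21 had a negative difference, with a median of -1.07 (-1.83 to -0.38 over the alternatives). Lep, the leptin gene, averaged 6.53 ± 4.64 normalized counts in MC and 85.1 ± 84.4 in DC (SD, n = 4; log2 difference -3.30, limma adjusted p = 0.083). Pparg, the fat cell regulator gene, averaged 53.95 ± 12.31 and 100.3 ± 20.48 (-0.89, adjusted p = 0.104). The summed adipocyte counts were 8376 to 10410 in MC, 12610 to 25660 in DC, 8560 to 20410 in WT and 8277 to 22720 in DMC. Of Fasn and Scd1, lipid synthesis genes, Fasn had 2114 to 3655 in MC and 4050 to 6073 in DC (-0.75, adjusted p = 0.256).

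Duct genes lay higher, with 16 of 22 positive, a median of 0.39 and none called. Cldn4, a tight junction gene, averaged 187.8 ± 39.8 in MC and 60.1 ± 20.3 in DC (SD, n = 4; 1.67, adjusted p = 0.0828). The mean log2 level of the duct list was 9.67 to 9.94 in MC and 9.23 to 9.41 in DC. Jchain, a plasma cell gene, averaged 635.1 ± 398.1 and 2237 ± 912 (-1.98, adjusted p = 0.126), with 12 of 14 B and plasma cell genes negative.

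Gm10036 and Gm9008, chosen after their values were seen, differed among libraries of 1 genotype. Gm10036 had 208.3, 409.6, 557.9 and 544.8 in MC and 546.8 in WT replicate 4, which share a number range, and at most 8.159 in the other 11 libraries. Gm9008 had 0 in all 4 MC libraries, in WT replicate 4 and in DMC replicate 1, and 20.1 to 56.97 in the other 10, which include the number-range mates of DMC replicate 1. Of the 195 genes, Gm9008 alone (1 gene) had WT replicate 4 within or beyond the MC range and WT replicates 1 and 3 within or beyond the DC range. What sets these 2 genes apart was not tested.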
